A study of Mus musculus with 9 samples.

Results

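The nuclear receptor family was read as 47 named genes in the deposited table of 55401 genes, matched by symbol. The matching used no measured value, but the members were chosen with earlier results of these data known. Of the 47, 41 had at least 1 count in some library, and 36 had enough counts to be tested. Liver RNA of 9 male mice was measured by QuantSeq, which reads the 3' end of each polyadenylated transcript, in 3 groups of 3 mice. STAM + Atglistatin mice had 200 µg of streptozotocin injected under the skin at an age of 2 days and were fed Atglistatin in a high-fat diet for 4 weeks, from an age of 4 weeks. STAM mice had the same streptozotocin injection and the high-fat diet for the same weeks, with no Atglistatin. Chow mice had neither streptozotocin nor Atglistatin and ate a chow diet. Streptozotocin destroys insulin-producing beta cells, STAM livers model fatty liver disease with diabetes, and Atglistatin inhibits adipose triglyceride lipase, the enzyme that starts the breakdown of stored fat. Streptozotocin and the high-fat diet always came together here, so their parts cannot be told apart, and no mouse strain is given in the sources used here. According to the series title, the study is about PPARα signalling and bile acids, both of which involve members of this family.

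Nuclear receptors are transcription factors, most of which bind small lipophilic molecules such as fatty acids, bile acids, oxysterols, retinoids and hormones. Many of them bind DNA paired with a retinoid X receptor (RXR), recruit coactivators or corepressors, and set the transcription of the genes that make, move or clear those same molecules. In liver they are known for the control of fat burning (PPARα), bile acid synthesis (FXR with SHP), sterol handling (LXR), drug metabolism (CAR and PXR), daily rhythm (REV-ERB and ROR) and hepatocyte identity (HNF4α). Their activity is set largely by ligands, cofactors and location in the cell, which transcript levels do not measure.

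In units of 1e6 counts, library totals were 7.38 to 9.89. Levels are given as CPM, counts per 1e6 counts of the TMM-scaled library, and are not divided by transcript length, since the method yields tags from transcript ends rather than along the gene, so an order of levels between genes is an order of tags. Of all counts in a library, the nuclear receptor genes took 0.183 to 0.211%. Their summed level was 2050, 2046 and 2005 CPM in STAM + Atglistatin livers, 2003, 1944 and 2040 CPM in STAM livers and 1767, 2126 and 2027 CPM in chow livers. Chow replicate 7 was the lowest of the 9, and the groups overlapped. The labelled tissue was checked on 6 hepatocyte markers, all of which were tested. Their summed level was 71772 to 73198 CPM in STAM + Atglistatin livers, 50253 to 60372 CPM in STAM livers and 94039 to 106264 CPM in chow livers, so hepatocyte transcripts were abundant everywhere. Of the 6, 4 fell in STAM livers against chow livers (edgeR, Benjamini-Hochberg adjusted p under 0.05), beside 1.99% of all tested genes. Mitochondrially encoded transcripts took 8.64 to 9.73% of counts in STAM + Atglistatin livers, 11 to 11.6% in STAM livers and 7.32 to 8.78% in chow livers. Chow replicate 7 differed from chow replicates 8 and 9 in 6 proliferation markers, with a summed level of 76.9 CPM against 8.18 and 13.9 CPM. It was also higher in 7 recruited macrophage markers, with 152 CPM against 73.0 and 102 CPM. In 7 stellate cell and fibroblast markers it had 654 CPM against 418 and 448 CPM, and in 5 cholangiocyte markers 55.1 CPM against 27.7 and 29.8 CPM. In 5 Kupffer cell markers it did not stand apart, at 262 CPM against 205 and 266 CPM. The part of these differences in the receptor results was not tested, except that each result was also computed without each library. In bulk liver, fewer cells of a type and less RNA per cell cannot be told apart.

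Levels within the family were spread widely. A mean of at least 50 CPM over the 9 libraries was reached by 13 members, a further 12 lay between 10 and 50 CPM, and 11 lay between 2 and 10 CPM. The 5 highest, Hnf4a, Rxra, Nr2f2, Ppara and Rora, held 50.3% of the family's summed level. Of the 36 tested members, 23 lay above the median of all tested genes. Members also differed in how far they ranged over the 9 libraries. The highest library was under 1.5 times the lowest for 6 members, among them Rora at 1.25 times and Rxra at 1.27 times. It was over 5 times the lowest for 4 members, all of them with a mean under 10 CPM, including Nr4a2 at 14.4 times.

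**Figure D1:**
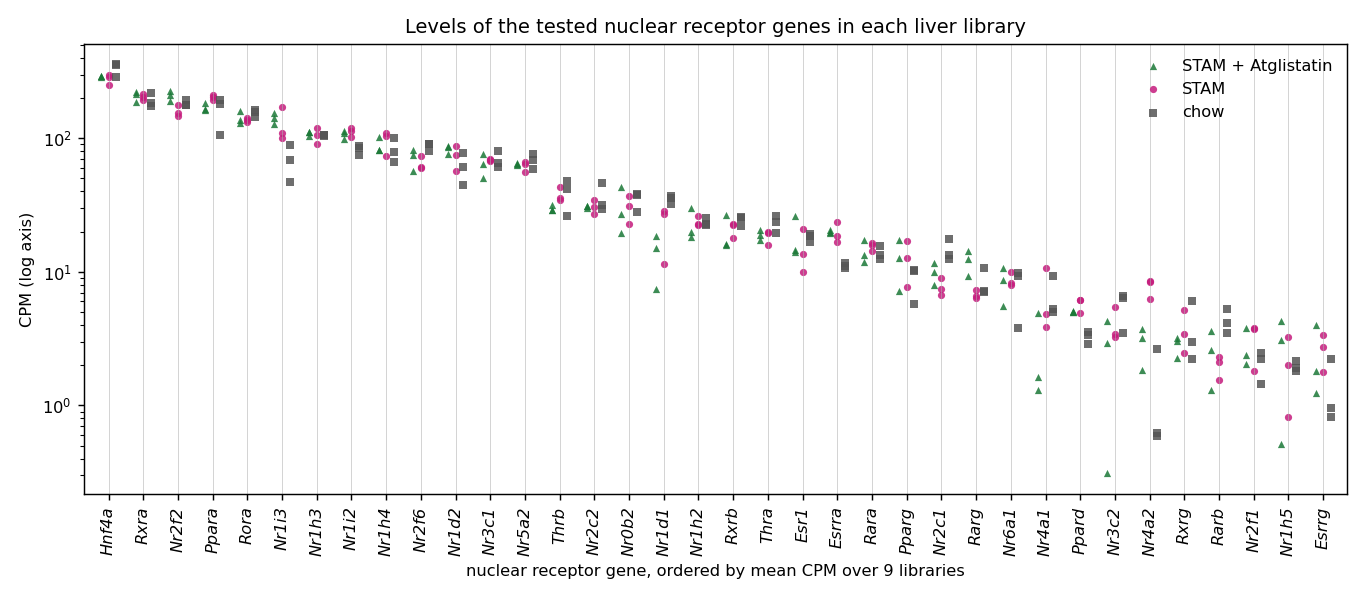
Level of each of the 36 tested nuclear receptor genes in each of the 9 liver libraries, in CPM on a log axis, with genes ordered by their mean level. Each point is 1 library, coloured by group. The 5 leftmost genes hold 50.3% of the family's summed level, and most genes show points of the 3 groups mixed. Chow lies apart from both other groups for Nr1i3, Nr1d1 and Esrra, and also for Nr1i2, Ppard and Nr2c1, which did not pass. STAM lies apart for Nr4a2 and, narrowly from chow, for Nr2f2, which did not pass.

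Few receptor transcripts passed the test. In STAM livers against chow livers, 3 of the 36 tested members rose and none fell (edgeR quasi-likelihood test, adjusted p under 0.05). They were Nr4a2 (NURR1), Nr1i3 (CAR) and Esrra (ERRα). Over all 12660 tested genes, 3.94% passed, 1.95% higher and 1.99% lower in STAM livers. The 3 members make 8.33% of those tested. At an unadjusted p under 0.05 (edgeR) there were 9 members, or 25.0%, beside 14.5% of all genes. In STAM + Atglistatin livers against STAM livers none of the 36 members passed, against 1.79% of all genes, 1.04% higher and 0.742% lower. DESeq2 and limma-voom also called 0 members there, and 5 members had an unadjusted p under 0.05, which is 13.9% of members against 10.1% of all genes. In STAM + Atglistatin livers against chow livers, Nr1i3 and Esrra rose and Nr1d1 (REV-ERBα) fell, again 8.33% of members against 4.08% of all genes, 2.10% higher and 1.97% lower. There 7 members had an unadjusted p under 0.05 (edgeR), or 19.4%, beside 14.8% of all genes. The median log2 fold change of the 36 members was -0.01, -0.02 and 0.01 in these 3 comparisons, beside -0.00 over all genes in each. With library totals in place of TMM scaling, the calls over all genes shifted to 347 higher and 205 lower in STAM against chow, compared with 247 and 252 under TMM, and to 359 higher and 184 lower in STAM + Atglistatin against chow, compared with 266 and 250. That scaling moved the median of all genes by under 0.1 log2 units.

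Values of the groups did not overlap for 11 of 36 members in STAM against chow, or 30.6%, beside 20.7% of all genes. Of the 11, 5 were higher in STAM livers (Nr4a2, Nr1i3, Esrra, Nr1i2 and Ppard, beside 10.6% of all genes) and 6 were lower (Nr2c1, Nr2f6, Nr1d1, Rarb, Rora and Nr2f2, beside 10.1%). STAM + Atglistatin and STAM livers did not overlap for 5 members, or 13.9%, beside 17.0% of all genes. These were Nr2f2 and Rarg, higher with Atglistatin (beside 8.56% of all genes), and Ppara, Nr4a2 and Thrb, lower with it (beside 8.45%). STAM + Atglistatin and chow livers did not overlap for 7 members, or 19.4%, beside 18.6% of all genes. The 4 that were higher were Nr1i3, Esrra, Nr1i2 and Ppard (beside 9.58%), and the 3 that were lower were Nr1d1, Nr4a1 and Nr2c1 (beside 9.03%). The comparisons share their STAM, STAM + Atglistatin or chow libraries, so a member that stands out in more than 1 of them was not measured independently. In the authors' deposited table, 36 members have an adjusted p. Between STAM and chow it is under 0.05 for 4 members (Esrra, Nr1i2, Nr1i3 and Nr4a2), beside 627 of 13336 genes. Between STAM + Atglistatin and chow it is so for 3 members (Esrra, Nr1d1 and Nr1i3), beside 625 of 13336 genes. Between STAM + Atglistatin and STAM it is so for 0 members, beside 282 of 12244 genes.

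**Figure D2:**
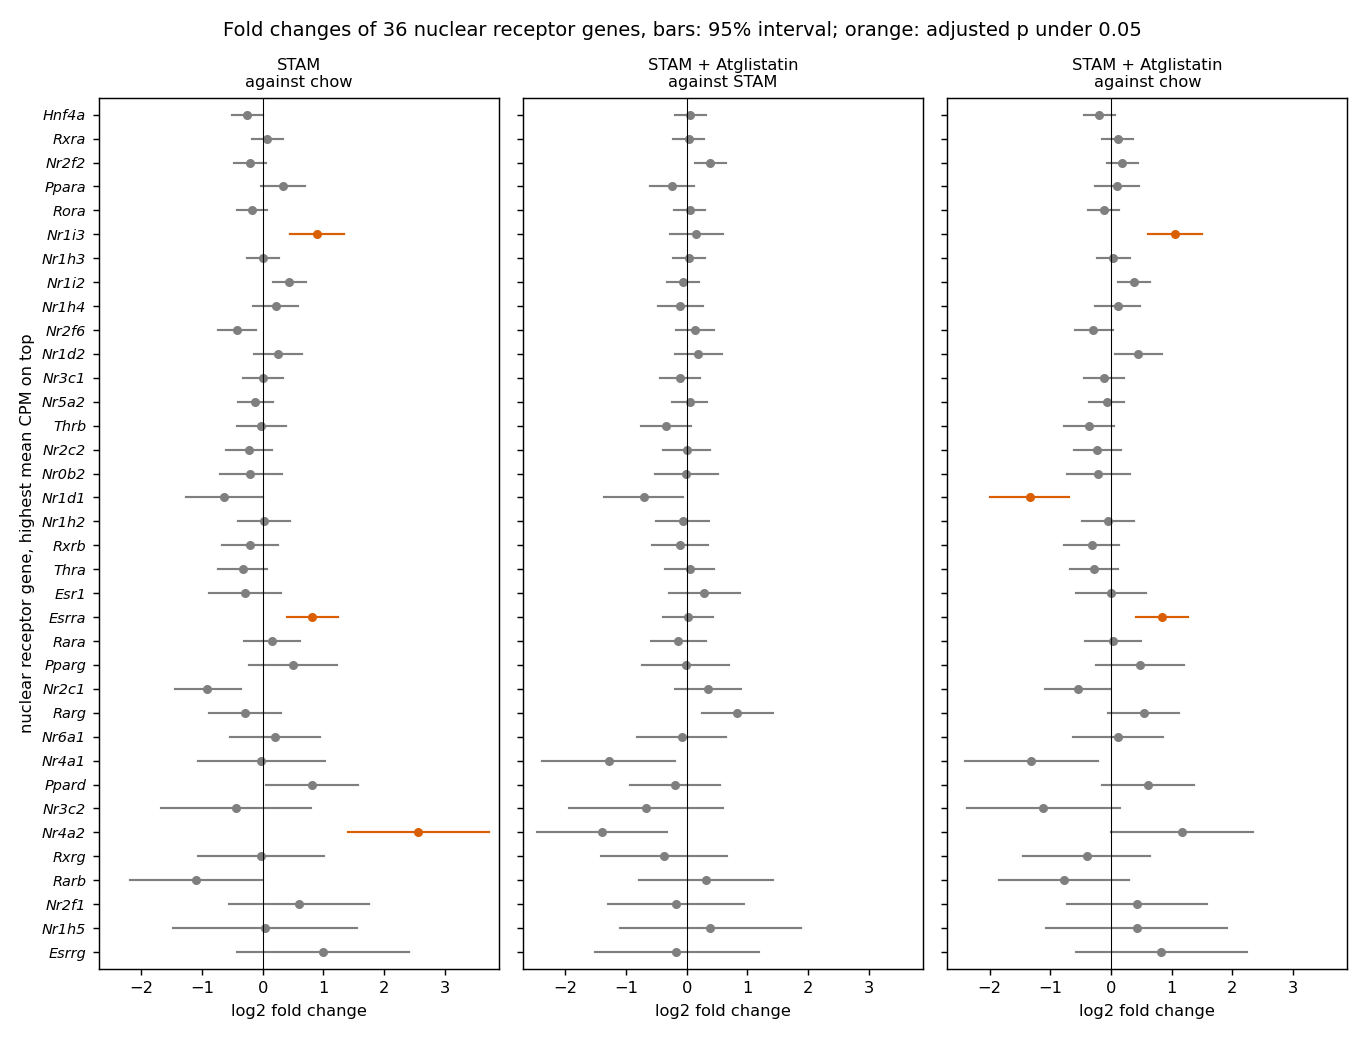
Log2 fold change of each tested nuclear receptor gene in 3 comparisons, with the most abundant gene on top. Points are estimates, bars are 95% intervals, and orange marks an adjusted p under 0.05. The genes at the top have shorter bars than the scarce genes at the bottom, and no gene is orange in STAM + Atglistatin against STAM.

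The 4 receptors that passed lie on different chromosomes of GRCm38. Nr1i3 (ENSMUSG00000005677) is at chr1:171213970-171220701 on the plus strand, Nr4a2 (ENSMUSG00000026826) at chr2:57106830-57124003 on the minus strand, Nr1d1 (ENSMUSG00000020889) at chr11:98767932-98775333 on the minus strand and Esrra (ENSMUSG00000024955) at chr19:6910977-6921813 on the minus strand. Their promoters are shown because these are the members whose transcripts passed the test. Each window runs from 250 bases before to 50 bases after the RefSeq start site (GRCm38.p6), read 5′ to 3′ on the gene's strand, at chr1:171213720-171214019, chr2:57123954-57124253, chr11:98775328-98775627 and chr19:6921759-6922058 in the order below. Capitals mark matches on either strand to CACGTG, the E-box bound by clock factors, or to TGACG, the core of the cAMP response element.
Nr1i3: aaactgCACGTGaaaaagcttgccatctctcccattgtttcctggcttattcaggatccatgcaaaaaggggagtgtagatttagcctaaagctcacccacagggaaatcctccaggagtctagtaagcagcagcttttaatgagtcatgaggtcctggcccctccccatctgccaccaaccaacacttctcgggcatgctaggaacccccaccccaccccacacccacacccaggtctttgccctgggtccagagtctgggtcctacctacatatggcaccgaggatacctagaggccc
Nr4a2: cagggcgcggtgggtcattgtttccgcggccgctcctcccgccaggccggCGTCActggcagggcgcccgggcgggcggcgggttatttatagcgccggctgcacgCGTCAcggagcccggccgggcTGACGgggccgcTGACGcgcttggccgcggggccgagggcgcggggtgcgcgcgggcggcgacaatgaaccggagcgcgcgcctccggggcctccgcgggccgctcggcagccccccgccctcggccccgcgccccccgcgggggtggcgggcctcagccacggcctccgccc
Nr1d1: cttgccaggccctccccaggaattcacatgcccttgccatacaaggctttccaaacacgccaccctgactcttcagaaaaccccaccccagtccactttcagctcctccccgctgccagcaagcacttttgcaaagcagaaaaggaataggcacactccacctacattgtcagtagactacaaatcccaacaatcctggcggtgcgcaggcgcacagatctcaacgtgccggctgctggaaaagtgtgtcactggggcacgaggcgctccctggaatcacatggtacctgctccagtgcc
Esrra: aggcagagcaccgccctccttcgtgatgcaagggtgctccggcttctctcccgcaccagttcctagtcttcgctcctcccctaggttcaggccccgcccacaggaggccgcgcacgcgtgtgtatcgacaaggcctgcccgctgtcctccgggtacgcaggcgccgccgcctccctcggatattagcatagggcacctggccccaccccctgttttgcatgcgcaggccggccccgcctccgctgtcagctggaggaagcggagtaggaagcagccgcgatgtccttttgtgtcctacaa

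The Nr1i3 window holds 1 E-box that begins at position -244. The Nr4a2 window holds 4 matches to TGACG, which begin at -200, -144, -123 and -111. Neither the Nr1d1 nor the Esrra window holds a match to any motif searched, which says only that these letters are not in these 300 bases. Searched on both strands, CACGTG stands in 7.15% of 32851 RefSeq promoter windows of the same length and TGACG in 20.8%. The longer palindrome TGACGTCA, which contains TGACG, stands in 1.79%. AGGTCA, the core that most receptors bind, stands in 16.3%. The longer REV-ERB and ROR element, which ends in AGGTCA, stands in 0.219%, and the direct repeat of AGGTCA spaced by 4 bases, a form that LXR and thyroid hormone receptors bind with RXR, in 0.0152%. Of the 47 members, 43 had a window in the RefSeq table, and some had several, which made 64 windows. Counted by window, as the shares above are, TGACG was found in 17 of the 64, AGGTCA in 12, CACGTG in 6 and TGACGTCA in 2. Counted by member, which those shares are not, TGACG was found in 15 of the 43, AGGTCA in 11, CACGTG in 5 and TGACGTCA in 2. Neither of the longer receptor elements was found in any. A match is a description of the letters and shows no binding.

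Nr1i3 and Nr1i2 encode CAR and PXR, the sensors of drugs and other foreign compounds, which switch on cytochrome P450 enzymes and conjugating enzymes. Nr1i3 had 143, 154 and 128 CPM in STAM + Atglistatin livers, 109, 100 and 172 CPM in STAM livers and 47.1, 88.9 and 68.9 CPM in chow livers. Every library of either STAM group lay above every chow library, while STAM + Atglistatin and STAM overlapped because STAM replicate 3 was the highest of all. The level in STAM livers, 127 ± 39.0 CPM, was 1.86-fold that in chow livers, 68.3 ± 20.9 CPM (SD, n = 3 each), a log2 fold change of 0.89 ± 0.21 (SE, edgeR adjusted p = 0.0209). With Atglistatin the difference from chow was 1.05 ± 0.21 on the log2 scale (edgeR adjusted p = 0.00641), a call kept under all 13 alternatives. Against STAM, the change with Atglistatin was 0.16 ± 0.21 (95% interval -0.28 to 0.60, edgeR adjusted p = 0.889). The STAM call was lost without STAM replicate 3 (0.62, edgeR adjusted p = 0.155), without chow replicate 9 (0.90, edgeR adjusted p = 0.0623) and with only both groups fitted (0.90, edgeR adjusted p = 0.0502), over a range of adjusted p down to 1.75e-07 in all settings. The same call was also lost with a minimum absolute log2 fold change of 1. Nr1i3 shares 3304 exon bases with Tomm40l on the other strand, and whether counting used strand is not given in the sources used here. Tomm40l itself had 6.34 to 15.9 CPM, far below Nr1i3, and a log2 fold change of 0.13 ± 0.30 in STAM against chow (edgeR adjusted p = 0.916). The Tomm40l values depend on the same handling of strand, and the part of this overlap in the Nr1i3 values was not tested.

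Nr1i2 moved less. It had 109, 98.7 and 113 CPM in STAM + Atglistatin livers, 102, 114 and 119 CPM in STAM livers and 74.9, 84.8 and 87.6 CPM in chow livers, so both STAM groups lay wholly above chow and overlapped each other. The log2 fold change was 0.44 ± 0.13 in STAM against chow (95% interval 0.17 to 0.71) and did not pass (edgeR adjusted p = 0.0663). It passed with library totals (0.53, adjusted p = 0.0148) and with DESeq2 (adjusted p = 0.0285), over a range of 0.0148 to 0.230 in all settings. In STAM + Atglistatin against chow it was 0.38 ± 0.13 (edgeR adjusted p = 0.129), which passed with library totals only (0.47, adjusted p = 0.0323, over a range up to 0.272). The ratio of Nr1i3 to Nr1i2 counts, a pair chosen after values were seen, was 1.13 to 1.56 in STAM + Atglistatin, 0.880 to 1.44 in STAM and 0.628 to 1.05 in chow livers.

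**Figure D3:**
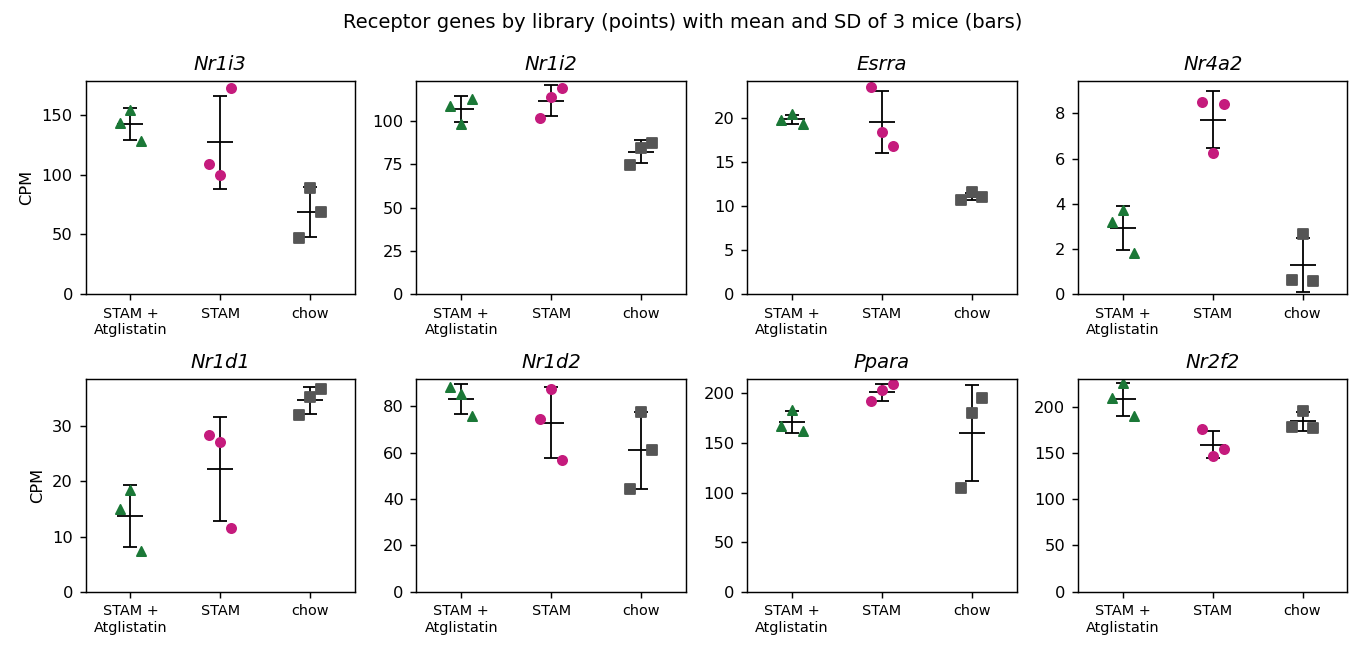
Level of 8 nuclear receptor genes in CPM by group, on axes that start at 0. Points are libraries, and bars show the mean and SD of 3 mice. Nr1i3, Nr1i2 and Esrra are higher in both STAM groups than in chow, Nr4a2 is highest in STAM, Nr1d1 is lowest with Atglistatin, and a single chow library, at 105 CPM, widens the chow bar of Ppara.

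The genes that CAR and PXR are known to switch on did not move as a block in STAM livers. Of 25 such genes, all tested, 4 rose and 4 fell against chow, with a median log2 fold change of 0.06. Over all 12660 tested genes 1.95% rose and 1.99% fell in this comparison, and the same shares stand beside the other gene lists. Cyp2c29, a P450 that mouse CAR induces, averaged 248 ± 74.8 CPM in STAM and 1700 ± 418 CPM in chow livers (log2 -2.78 ± 0.21, edgeR adjusted p = 1.75e-07), and Cyp2b10, the usual marker of CAR activity, averaged 2.64 ± 2.02 CPM and 27.4 ± 4.65 CPM (log2 -3.38 ± 0.38, edgeR adjusted p = 1.89e-05). Por, the reductase that supplies electrons to P450 enzymes, rose by 1.08 ± 0.13 (edgeR adjusted p = 4.12e-05). With Atglistatin, 5 of the 25 rose against STAM and none fell, 24 of the 25 had a positive fold change, and the median was 0.44. Over all 12660 tested genes 1.04% rose, 0.742% fell and 6316 had a positive fold change there, which holds beside the other gene lists too. Gstm1, a glutathione transferase, averaged 2565 ± 432 CPM with Atglistatin and 932 ± 120 CPM in STAM livers (log2 1.46 ± 0.16, edgeR adjusted p = 2.32e-05). Cyp2c29 rose by 1.11 ± 0.20 (edgeR adjusted p = 0.00320), and Ephx1, the microsomal epoxide hydrolase, by 0.73 ± 0.15 (edgeR adjusted p = 0.0150). Against chow, STAM + Atglistatin livers had 9 of the 25 higher and 3 lower, with a median of 0.60, including Por at 1.35 ± 0.13 and Abcb1a, a drug efflux pump, at 2.45 ± 0.34. Over all tested genes 2.10% were higher and 1.97% lower in that comparison. Cyp2c29 remained 1.66 log2 units lower than in chow (-1.66 ± 0.20, edgeR adjusted p = 3.90e-05). These counts moved with single libraries. In STAM against chow 2 rose without STAM replicate 1 or chow replicate 9, and 6 rose and 6 fell without chow replicate 7. In STAM + Atglistatin against STAM 2 rose without STAM + Atglistatin replicate 4 or 5 or STAM replicate 1 or 2, 8 rose with limma-voom or with no low-count filter, and 4 rose with DESeq2. Several of these genes have close paralogs, and the sources used here do not say how multiply mapped reads were counted.

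PPARα, encoded by Ppara, is the fatty acid sensor that switches on fat oxidation in hepatocytes, PPARγ (Pparg) drives fat storage, chiefly in adipocytes, and PPARδ (Ppard) is a widely expressed relative. Ppara had 167, 183 and 162 CPM in STAM + Atglistatin livers, 192, 203 and 209 CPM in STAM livers and 105, 180 and 195 CPM in chow livers. All Atglistatin libraries lay below all STAM libraries, and both overlapped chow, where replicate 7 stood far below the others. The change with Atglistatin was -0.24 ± 0.17 against STAM on the log2 scale (95% interval -0.60 to 0.12, edgeR adjusted p = 0.745). STAM against chow gave 0.33 ± 0.17 (edgeR adjusted p = 0.397), and 0.10 without chow replicate 7 (edgeR adjusted p = 0.764, over a range of 0.135 to 0.764). STAM + Atglistatin against chow gave 0.10 ± 0.17 (edgeR adjusted p = 0.876), and -0.14 without chow replicate 7 (edgeR adjusted p = 0.650, over a range of 0.612 to 0.965).

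Pparg had 7.21, 12.6 and 17.2 CPM in STAM + Atglistatin livers, 17.1, 12.7 and 7.68 CPM in STAM livers and 10.4, 10.2 and 5.75 CPM in chow livers, which overlapped throughout. Its log2 fold change was 0.50 ± 0.35 in STAM against chow (95% interval -0.23 to 1.23, edgeR adjusted p = 0.573) and -0.02 ± 0.34 with Atglistatin against STAM (95% interval -0.74 to 0.69, edgeR adjusted p = 0.994). Ppard was low but orderly, at 5.01, 5.07 and 4.97 CPM with Atglistatin, 6.18, 4.95 and 6.12 CPM in STAM and 3.39, 2.89 and 3.54 CPM in chow livers. Both STAM groups lay above chow, with a log2 fold change of 0.81 ± 0.36 in STAM against chow that did not pass (edgeR adjusted p = 0.301).

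Genes that these receptors are known to switch on moved where the receptor transcripts did not pass. Of 25 PPARα targets, all tested, 13 rose in STAM livers against chow and none fell, with a median log2 fold change of 0.54. Vnn1, a pantetheinase, averaged 127 ± 5.23 CPM in STAM and 38.5 ± 6.76 CPM in chow livers (log2 1.73 ± 0.14, edgeR adjusted p = 5.41e-07). Aldh3a2, a fatty aldehyde dehydrogenase, rose by 1.49 ± 0.13 and Cyp4a10, a fatty acid omega-hydroxylase, by 2.20 ± 0.22. Against STAM, no target passed with Atglistatin (edgeR, DESeq2 and limma-voom each called 0, and 1 target was higher and 1 lower at an unadjusted p under 0.05), and the median was 0.02. Against chow, 11 rose with Atglistatin and none fell, with a median of 0.43, among them Cyp4a14 at 1450 ± 122 CPM against 120 ± 68.9 CPM in chow livers. Leaving out any 1 library left 10 to 13 PPARα targets risen in STAM against chow, and 1 fell without chow replicate 7. Of 9 tested PPARγ targets, 5 rose in STAM against chow, with a median of 2.10, and 1, Cidea, fell with Atglistatin against STAM, where the median was -0.57. Without chow replicate 7, 8 rose in STAM against chow, and without STAM replicate 3 Cidea did not pass. Cd36, a fatty acid uptake receptor, averaged 94.2 ± 7.95 CPM in STAM and 19.5 ± 6.22 CPM in chow livers (log2 2.26 ± 0.19, edgeR adjusted p = 8.23e-07). Cidea, which promotes lipid droplet fusion, had 27 counts over the STAM + Atglistatin libraries, 238 over the STAM libraries and 1 over the chow libraries. Cidea is also on the list of adipocyte markers, of which Lep had no count in any library and Adipoq had 25, 3 and 27 counts over the STAM + Atglistatin, STAM and chow libraries. The 5 adipocyte markers summed to 5.48 to 9.39 CPM, 121 to 200 CPM and 2.53 to 9.56 CPM in these groups. In STAM livers almost all of that sum was Cfd, at 145, 114 and 188 CPM, while Plin1 had 2, 0 and 19 counts over the STAM + Atglistatin, STAM and chow libraries. The part of such cells in the PPARγ target values was not tested.

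None of the bile acid and oxysterol receptors passed in any comparison. Nr1h4 encodes FXR, the bile acid receptor, which induces Nr0b2. Nr0b2 encodes SHP, a receptor without a DNA-binding domain that represses bile acid synthesis. Nr1h4 had 82.0, 82.1 and 102 CPM in STAM + Atglistatin livers, 110, 73.3 and 104 CPM in STAM livers and 66.4, 101 and 78.9 CPM in chow livers. Nr0b2 had 43.2, 27.1 and 19.6 CPM in STAM + Atglistatin livers, 36.9, 30.9 and 22.9 CPM in STAM livers and 28.1, 38.3 and 37.8 CPM in chow livers. For both genes the 3 groups overlapped, and the spread within a group was as wide as that between groups. Nr1h4 with Atglistatin against STAM had a log2 fold change of -0.11 ± 0.17 (95% interval -0.48 to 0.26, edgeR adjusted p = 0.915) and Nr0b2 one of -0.01 ± 0.25 (95% interval -0.53 to 0.51, edgeR adjusted p = 0.996). In STAM against chow the values were 0.22 ± 0.17 for Nr1h4 (edgeR adjusted p = 0.647) and -0.20 ± 0.25 for Nr0b2 (edgeR adjusted p = 0.808).

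Nr1h3 encodes LXRα, the oxysterol receptor that promotes sterol export and fat synthesis. It had 104, 111 and 111 CPM in STAM + Atglistatin livers, 120, 90.9 and 106 CPM in STAM livers and 104, 106 and 106 CPM in chow livers. It was among the steadiest members, with a highest library 1.33 times the lowest, and its log2 fold change was 0.00 ± 0.13 in STAM against chow (95% interval -0.26 to 0.27) and 0.04 ± 0.13 with Atglistatin against STAM (95% interval -0.23 to 0.30). Nr1h2, which encodes LXRβ, lay at 18.1 to 30.3 CPM, and Nr1h5, which encodes FXRβ, at 0.517 to 4.32 CPM. Vdr, the vitamin D receptor, had 5 counts in all.

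Targets of FXR and LXR changed in both directions. Of 11 tested FXR and SHP targets, 1 rose and 2 fell in STAM against chow, with a median of -0.09. Abcb11, the bile salt export pump, averaged 177 ± 15.2 CPM in STAM and 361 ± 33.4 CPM in chow livers (log2 -1.03 ± 0.13, edgeR adjusted p = 5.46e-05), and Abcb4, the phospholipid exporter of bile, rose by 0.70 ± 0.12 (edgeR adjusted p = 0.00181). Without chow replicate 7, 4 fell, and without chow replicate 9, 2 rose. Cyp8b1, the enzyme that makes cholic acid, was the single gene of this list to pass with Atglistatin against STAM, at 285 ± 63.6 CPM against 472 ± 83.6 CPM in STAM livers (log2 -0.73 ± 0.18, edgeR adjusted p = 0.0440). It did not pass without STAM + Atglistatin replicate 4 or 5 or STAM replicate 1 or 3. Of 15 LXR targets, 3 rose and 3 fell in STAM against chow, with a median of 0.06. Scd1 and Fasn, lipogenic enzymes that also answer to insulin and SREBP-1c, fell by 3.25 and 1.98 log2 units in STAM, and both rose with Atglistatin against STAM, by 1.78 ± 0.20 and 2.19 ± 0.21 (edgeR adjusted p = 3.43e-05 and 4.51e-06), the only 2 of the 15 to pass there with all libraries or without any 1 of them. The 3 that rose in STAM were Abcg5, Abcg8 and Abcg1, named after their values were seen, which are sterol exporters. The number risen was 1 without STAM replicate 2, chow replicate 8 or chow replicate 9, and 2 without any other.

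**Figure D4:**
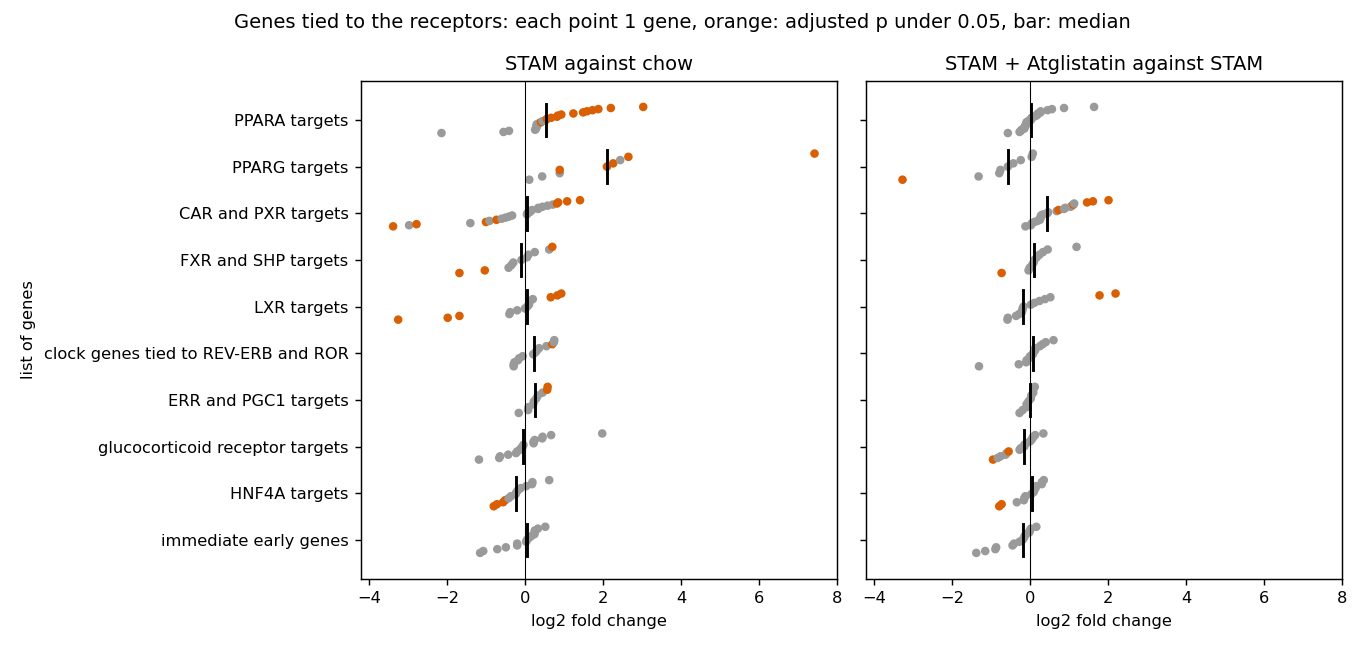
Log2 fold changes of genes tied to the receptors, by list, in 2 comparisons. Each point is 1 gene, orange marks an adjusted p under 0.05, and the black bar is the list's median. In STAM against chow the PPARα and PPARγ targets lie mostly to the right of 0 and the CAR and PXR targets on both sides, and in STAM + Atglistatin against STAM 24 of 25 CAR and PXR targets lie to the right.

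Esrra encodes ERRα, an orphan receptor that works with the coactivator PGC-1α to raise mitochondrial genes. It had 19.8, 20.5 and 19.4 CPM in STAM + Atglistatin livers, 23.6, 18.5 and 16.8 CPM in STAM livers and 10.7, 11.6 and 11.1 CPM in chow livers. Every library of both STAM groups lay above every chow library, and the chow and Atglistatin libraries were each within a narrow band. STAM livers averaged 19.6 ± 3.55 CPM and chow livers 11.1 ± 0.433 CPM (SD, n = 3 each), a 1.77-fold difference (log2 0.82 ± 0.20, edgeR adjusted p = 0.0254). Atglistatin livers averaged 19.9 ± 0.529 CPM, 1.79-fold the chow level (log2 0.84 ± 0.20, edgeR adjusted p = 0.0208) and 0.02 ± 0.19 log2 units from STAM (95% interval -0.39 to 0.43). The log2 fold change in STAM against chow was 0.67 to 0.92 over all settings, but the call depended on single libraries. The adjusted p was 0.171 without STAM replicate 1 (log2 0.67), 0.0601 without STAM replicate 2, and 0.0526, 0.0686 and 0.0820 without chow replicate 7, 8 or 9, over a range down to 0.0155. In STAM + Atglistatin against chow it was 0.0658 and 0.0765 without STAM + Atglistatin replicate 4 or 5, and 0.0608 and 0.0777 without chow replicate 8 or 9, over a range down to 0.0114. Both Esrra calls against chow were also lost with a minimum absolute log2 fold change of 1. Esrra shares 73 exon bases with Trmt112 on the other strand, which was more abundant, at 46.7 to 68.6 CPM, and had a log2 fold change of -0.03 ± 0.16 in STAM against chow. The part of this overlap in the Esrra values was not tested. The mitochondrial share of counts given above was higher in all STAM than in all chow libraries, as Esrra was, but in STAM + Atglistatin livers it overlapped chow where Esrra did not. Its part in this result was not tested.

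Of 10 genes known as targets of ERR with PGC-1, 2 rose in STAM against chow and none fell, with a median of 0.26. Among these was Mfn2, which fuses mitochondria (log2 0.57 ± 0.13, edgeR adjusted p = 0.0155). The number was 1 without STAM replicate 1 or 2 and 0 without STAM replicate 3. Against STAM none of the 10 passed with Atglistatin, and none had an unadjusted p under 0.05 (edgeR, with 0 also by DESeq2 and limma-voom). Of 21 coactivators and corepressors, none passed in any of the 3 comparisons by edgeR, DESeq2 or limma-voom. However, 1 rose in each comparison with chow when chow replicate 7 was left out, and 1 fell with Atglistatin against STAM with no low-count filter. At an unadjusted p under 0.05, 1 was higher and 1 lower in STAM against chow, 1 was lower with Atglistatin against STAM and 2 were lower with Atglistatin against chow. Ppargc1b, a coactivator of ERRα, had the smallest p of the list with Atglistatin against STAM, at 17.5 ± 4.37 CPM against 29.9 ± 11.2 CPM (log2 -0.77 ± 0.30, edgeR adjusted p = 0.324).

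REV-ERBα (Nr1d1) and REV-ERBβ (Nr1d2) are repressors of the circadian clock, and RORα (Rora) activates from the same DNA elements. Nr1d1 had 15.1, 18.4 and 7.45 CPM in STAM + Atglistatin livers, 28.4, 27.1 and 11.5 CPM in STAM livers and 32, 35.4 and 36.7 CPM in chow livers. Both STAM groups lay wholly below chow and overlapped each other, with STAM replicate 3 and STAM + Atglistatin replicate 6 the lowest of their groups. Atglistatin livers averaged 13.7 ± 5.63 CPM and chow livers 34.7 ± 2.46 CPM, 2.53-fold lower with Atglistatin (log2 -1.34 ± 0.31, 95% interval -1.99 to -0.69, edgeR adjusted p = 0.0172). STAM against chow gave -0.63 ± 0.30 (edgeR adjusted p = 0.347), and Atglistatin against STAM -0.71 ± 0.31 (95% interval -1.36 to -0.06, edgeR adjusted p = 0.421). The last of these passed at an adjusted p of 0.0491 with no low-count filter, over a range up to 0.842. The call against chow was lost without STAM + Atglistatin replicate 4 (edgeR adjusted p = 0.0600) or 6 (0.0636) and without chow replicate 8 (0.0518) or 9 (0.0540), over a range down to 5.38e-08. Nr1d1 shares 263 exon bases with Thra on the other strand, itself a member, whose levels were 15.8 to 26.3 CPM. By their annotated positions the genes overlap at the 3' end of each, where this method reads. Thra had a log2 fold change of -0.28 ± 0.19 in STAM + Atglistatin against chow (edgeR adjusted p = 0.555). The part of this overlap in the Nr1d1 values was not tested.

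Nr1d2 did not follow Nr1d1. It had 88.2, 85.3 and 75.7 CPM in STAM + Atglistatin livers, 74.3, 87.2 and 56.8 CPM in STAM livers and 44.3, 77.4 and 61.1 CPM in chow livers, with a log2 fold change of 0.45 ± 0.19 in STAM + Atglistatin against chow that did not pass (edgeR adjusted p = 0.255). The ratio of Nr1d2 to Nr1d1 counts, a pair chosen after values were seen, was 5.83, 4.63 and 10.2 in STAM + Atglistatin livers, 2.62, 3.22 and 4.93 in STAM livers and 1.39, 2.19 and 1.66 in chow livers. STAM + Atglistatin overlapped STAM in this ratio only through STAM replicate 3, and chow lay below both. Rora was steady, at 129, 137 and 159 CPM with Atglistatin, 136, 143 and 133 CPM in STAM and 162, 158 and 145 CPM in chow livers, with a log2 fold change of -0.17 ± 0.12 in STAM against chow (edgeR adjusted p = 0.585) and 0.05 ± 0.12 with Atglistatin against STAM (95% interval -0.21 to 0.30). Rorb had no count.

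Of 14 tested clock genes tied to REV-ERB and ROR, 1 rose in STAM against chow and 3 rose in STAM + Atglistatin against chow, with medians of 0.24 and 0.17, and none fell. Tef, a clock output factor, averaged 205 ± 48.1 CPM with Atglistatin and 118 ± 26.6 CPM in chow livers (log2 0.79 ± 0.18, edgeR adjusted p = 0.0136). Per3, a clock repressor of the period family, had 27, 29.6 and 15.2 CPM with Atglistatin and 10.9, 14.6 and 11.8 CPM in chow livers (log2 0.95 ± 0.25, edgeR adjusted p = 0.0344). Cry1, a clock repressor with REV-ERB elements, had 19.6, 22.4 and 17.1 CPM and 12.3, 8.54 and 8.56 CPM in these groups (edgeR adjusted p = 0.0381). All 3 were higher in every Atglistatin library than in any chow library, and the number of clock genes risen was 0 without STAM + Atglistatin replicate 4 or 5 or chow replicate 9, 1 without chow replicate 8 and 2 without chow replicate 7. Without STAM + Atglistatin replicate 6, 3 rose and 1 fell. The call of Tef in STAM against chow was kept without chow replicate 8 and lost without any other library. None of the 14 passed with Atglistatin against STAM, none had an unadjusted p under 0.05, and DESeq2 and limma-voom called 0. Arntl (BMAL1), the best known REV-ERB target and named here after its values were seen, had 0.801, 2.28 and 5.29 CPM in STAM + Atglistatin livers, 1.44, 0.354 and 3.72 CPM in STAM livers and 5.04, 0.602 and 0.443 CPM in chow livers. Its highest libraries in the 2 STAM groups were those with the lowest Nr1d1, but in chow replicate 7 it was high with Nr1d1 at 32 CPM. The sources used here do not give the time of day at which livers were taken.

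The NR4A receptors are orphan receptors induced within minutes to hours by hormones and stress, as immediate early genes are. Nr4a2 was scarce, with 32, 36 and 17 counts in STAM + Atglistatin, 77, 53 and 70 counts in STAM and 6, 22 and 4 counts in chow libraries. In CPM these were 3.21, 3.72 and 1.83 with Atglistatin, 8.50, 6.25 and 8.40 in STAM and 0.617, 2.65 and 0.590 in chow livers. All STAM libraries lay above all libraries of both other groups, which overlapped. The mean in STAM, 7.72 ± 1.27 CPM, was 5.93-fold that in chow by the fitted log2 change of 2.57 ± 0.55 (95% interval 1.41 to 3.73, edgeR adjusted p = 0.0102). The call was lost without STAM replicate 1 (edgeR adjusted p = 0.0558), over a range down to 7.95e-05, and the fold change was 3.64 log2 units without chow replicate 8, the highest chow library. Set against STAM, the change with Atglistatin was -1.40 ± 0.51 (95% interval -2.47 to -0.33, edgeR adjusted p = 0.274), which passed under none of the 13 alternatives, and against chow it was 1.17 ± 0.56 (edgeR adjusted p = 0.337).

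Nr4a1 (NUR77) had 1.30, 4.96 and 1.62 CPM in STAM + Atglistatin livers, 4.86, 3.89 and 10.7 CPM in STAM livers and 5.04, 9.27 and 5.31 CPM in chow livers. Its STAM and chow libraries overlapped, with a log2 fold change of -0.02 ± 0.50 (95% interval -1.06 to 1.03). All Atglistatin libraries lay below all chow libraries and replicates 4 and 6 below all STAM libraries, with log2 fold changes of -1.29 ± 0.52 against STAM (edgeR adjusted p = 0.349) and -1.31 ± 0.52 against chow (edgeR adjusted p = 0.224), neither of which passed. Nr4a3 had 28 counts over all libraries and was not tested. Of 15 tested immediate early genes, none passed in STAM against chow or with Atglistatin against STAM (edgeR). At an unadjusted p under 0.05, 0 were higher and 2 lower in STAM against chow, and 0 were higher and 3 lower with Atglistatin against STAM, where 13 of the 15 had a negative fold change and the median was -0.19. DESeq2 called 1 lower and limma-voom 0 with Atglistatin against STAM, and neither tool called any in STAM against chow. Without chow replicate 7, 2 rose in STAM against chow, without STAM replicate 2, 1 fell there, and without STAM replicate 3, 1 fell with Atglistatin against STAM. Junb, an AP-1 subunit, had 24.5, 21.4 and 23.1 CPM with Atglistatin, 41.7, 59.7 and 26.8 CPM in STAM and 46.8, 43.3 and 35 CPM in chow livers, and did not pass with Atglistatin against STAM (log2 -0.89 ± 0.23, edgeR adjusted p = 0.0529). Against chow, 3 of the 15 fell with Atglistatin, namely Zfp36, Egr1 and Junb. The number was 0 without any 1 of the STAM + Atglistatin libraries, 1 without chow replicate 7 or 8, 1 with limma-voom and 0 with library totals.

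Hnf4a encodes HNF4α, the receptor that maintains hepatocyte gene expression, and it was the most abundant member. It had 290, 292 and 289 CPM in STAM + Atglistatin livers, 252, 297 and 285 CPM in STAM livers and 286, 352 and 357 CPM in chow livers, where replicates 8 and 9 were the highest of all and replicate 7 lay with the other groups. The log2 fold change was -0.26 ± 0.12 in STAM against chow (edgeR adjusted p = 0.338), -0.19 ± 0.12 in STAM + Atglistatin against chow (edgeR adjusted p = 0.512) and 0.06 ± 0.12 with Atglistatin against STAM (95% interval -0.19 to 0.32). Of 14 tested HNF4α targets, 4 fell in STAM against chow and none rose, with a median of -0.23, led by Apoa1, the main protein of HDL (log2 -0.80 ± 0.11, edgeR adjusted p = 1.64e-04), and Ttr, the thyroxine carrier transthyretin (log2 -0.72 ± 0.11, edgeR adjusted p = 7.67e-04). The number fallen was 2 without STAM replicate 1 or chow replicate 8. Apoa1 and Ttr are also on the list of hepatocyte markers, whose summed level is given above. With Atglistatin against STAM, 2 of the 14 fell, Apob, the structural protein of VLDL (log2 -0.79 ± 0.14, edgeR adjusted p = 0.00466), and Cyp8b1, and 1 did without STAM + Atglistatin replicate 4 or 5 or STAM replicate 1 or 3.

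Nr2f2 encodes COUP-TFII, found in liver in endothelial and stellate cells as well as hepatocytes. It had 209, 226 and 190 CPM in STAM + Atglistatin livers, 176, 147 and 154 CPM in STAM livers and 178, 195 and 177 CPM in chow livers. Every Atglistatin library lay above every STAM library, and STAM lay just below chow. With Atglistatin against STAM it had the smallest p of the family, at 0.39 ± 0.12 log2 units (95% interval 0.14 to 0.65), but did not pass (edgeR adjusted p = 0.159, and 0.0654 to 0.532 over the alternatives). Summed sinusoidal endothelial markers (6 of 6 tested, none passing with Atglistatin against STAM) were 348, 319 and 271 CPM in STAM + Atglistatin livers, 263, 245 and 280 CPM in STAM livers and 269, 269 and 292 CPM in chow livers. The 7 stellate cell and fibroblast markers summed to 451 to 504 CPM, 370 to 492 CPM and 418 to 654 CPM in the same groups. The part of these cells in the Nr2f2 values was not tested.

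No other NR2 receptor passed in any comparison by edgeR with all libraries. Nr2c1 (TR2) had 11.6, 7.96 and 9.93 CPM in STAM + Atglistatin livers, 6.73, 8.96 and 7.44 CPM in STAM livers and 13.4, 12.4 and 17.7 CPM in chow livers. Both STAM groups lay below chow, and the log2 fold change of -0.91 ± 0.26 in STAM against chow stood just short of the threshold (edgeR adjusted p = 0.0604). It passed with limma-voom (-0.94, adjusted p = 0.0303), over a range of 0.0303 to 0.249. Nr2f6 (EAR2) had 59.4 to 73.1 CPM in STAM and 79.6 to 91.2 CPM in chow livers (log2 -0.43 ± 0.15, edgeR adjusted p = 0.155), and Nr2f6 shares 1622 exon bases with Ocel1 on the other strand. Nr2c2 (TR4) and Nr2f1 (COUP-TFI) overlapped in all groups, at 27.1 to 46.6 CPM and 1.44 to 3.81 CPM. Nr2c2 shares 4590 exon bases with Mrps25 on the other strand, which lay at 26.3 to 39.1 CPM. Hnf4g had 5 counts, and Nr2e1 and Nr2e3, known from brain and retina, had none.

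Rxra encodes RXRα, the common partner of many receptors in hepatocytes. It had 214, 221 and 187 CPM in STAM + Atglistatin livers, 193, 202 and 215 CPM in STAM livers and 183, 219 and 175 CPM in chow livers, with all groups overlapping. Its log2 fold change was 0.08 ± 0.12 in STAM against chow (95% interval -0.18 to 0.34) and 0.03 ± 0.12 with Atglistatin against STAM (95% interval -0.23 to 0.29). Rxrb and Rxrg were lower, at 15.8 to 26.7 CPM and 2.21 to 6.02 CPM, and did not pass.

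Among thyroid hormone and retinoid receptors none passed. Thrb, which encodes the main thyroid hormone receptor of liver, had 29.2, 28.8 and 31.6 CPM in STAM + Atglistatin livers, 43.3, 35.7 and 34.3 CPM in STAM livers and 26.3, 41.9 and 47.5 CPM in chow livers, so the Atglistatin libraries lay below STAM but within the range of chow. Rarg, which encodes RARγ, had 14.3, 9.31 and 12.5 CPM with Atglistatin, 6.62, 7.31 and 6.36 CPM in STAM and 7.09, 7.22 and 10.6 CPM in chow livers. All Atglistatin libraries lay above all STAM libraries, with a log2 fold change of 0.83 ± 0.28 (95% interval 0.25 to 1.42) that did not pass (edgeR adjusted p = 0.206). Rarb, which encodes RARβ and is low in liver, averaged 2.00 ± 0.394 CPM in STAM and 4.29 ± 0.886 CPM in chow livers (log2 -1.10 ± 0.52, edgeR adjusted p = 0.343), and shares 1793 exon bases with Top2b on the other strand, which lay at 45.0 to 65.3 CPM. Rara and Thra lay at 11.8 to 17.2 CPM and 15.8 to 26.3 CPM. Of 9 tested thyroid hormone targets, 1 rose and 1 fell in each of STAM against chow (Cpt1a and Me1) and Atglistatin against STAM (Me1 and Klf9), with medians of 0.22 and -0.22. Without chow replicate 7, 3 fell in STAM against chow, and without chow replicate 8 or 9, 2 rose. Me1, the malic enzyme that supplies NADPH for fat synthesis, averaged 191 ± 29.1 CPM with Atglistatin, 76.8 ± 4.50 CPM in STAM and 150 ± 40.1 CPM in chow livers. Of 8 tested retinoic acid targets, 1 fell in STAM against chow (2 without chow replicate 7), and 1 fell with Atglistatin against STAM. The gene that fell with Atglistatin was Rarres1, a retinoid-induced gene, at 7.83 ± 2.07 CPM against 26.3 ± 3.04 CPM (log2 -1.75 ± 0.29, edgeR adjusted p = 0.00171).

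Enzymes and carriers that make, clear or deliver receptor ligands also changed. Of 15 tested, 5 fell in STAM against chow and none rose, with a median of -0.38, and 4 or 5 fell whichever library was left out. Hsd17b2, which inactivates sex steroids, averaged 132 ± 9.61 CPM in STAM and 268 ± 61.7 CPM in chow livers (log2 -1.02 ± 0.15, edgeR adjusted p = 4.28e-04). Cyp27a1, the sterol 27-hydroxylase that makes an LXR ligand and starts a bile acid route, fell by 0.65 log2 units (edgeR adjusted p = 0.00448). With Atglistatin against STAM, 2 of the 15 fell, also when any 1 library was left out, and 2 rose by DESeq2 or limma-voom but not by edgeR. They were Cyp7b1, the oxysterol 7α-hydroxylase, at 43.3 ± 8.40 CPM against 166 ± 18.7 CPM in STAM livers (log2 -1.94 ± 0.18, edgeR adjusted p = 4.25e-06), and Srd5a1, the steroid 5α-reductase, at 62.8 ± 11.7 CPM against 114 ± 11.3 CPM (log2 -0.86 ± 0.16, edgeR adjusted p = 0.00541).

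Of the steroid hormone receptors, the glucocorticoid receptor was the most abundant. Its gene Nr3c1 had 64.6, 50.7 and 76.4 CPM in STAM + Atglistatin livers, 70.2, 69.3 and 67.7 CPM in STAM livers and 65.5, 80.0 and 61.1 CPM in chow livers, all overlapping. The log2 fold change was 0.00 ± 0.16 in STAM against chow (95% interval -0.33 to 0.33) and -0.11 ± 0.16 with Atglistatin against STAM (95% interval -0.44 to 0.22). Of 17 glucocorticoid targets none passed in STAM against chow by edgeR (2 higher and 3 lower at an unadjusted p under 0.05), DESeq2 called 1 higher, and limma-voom called 2 higher and 1 lower. With no low-count filter edgeR called 3 higher and 3 lower, and with only both groups fitted 1 lower. Without chow replicate 7, 4 rose and 5 fell, and without chow replicate 9, 1 rose. With Atglistatin against STAM, 2 fell, Sds, a serine-catabolising enzyme (log2 -0.95 ± 0.14, edgeR adjusted p = 4.97e-04), and Klf9, a hormone-induced transcription factor (log2 -0.55 ± 0.12, edgeR adjusted p = 0.0250). Klf9 passed without STAM replicate 3 and did not pass without any other library. Esr1, the estrogen receptor α gene, averaged 18.2 ± 6.74 CPM, 14.9 ± 5.66 CPM and 18.2 ± 1.21 CPM in STAM + Atglistatin, STAM and chow livers, and the mineralocorticoid receptor gene Nr3c2 at 0.310 to 6.62 CPM, the highest ratio of highest to lowest library of any tested member. Esrrg lay at 0.822 to 3.99 CPM. Nr5a2 encodes LRH-1, which drives bile acid synthesis genes, and was steady at 55.9 to 76.0 CPM, and Nr6a1 lay at 3.80 to 10.7 CPM. None of these 5 passed in any comparison.

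The 11 members that were not tested had few or no counts. Nr4a3, Esrrb, Hnf4g, Vdr and Pgr had between 1 and 28 counts in all. Rorb, Nr2e1, Nr2e3, Esr2, Nr5a1 and Nr0b1 had 0 counts in every library. A count of 0 over the 3 libraries of a group allows up to 0.104 CPM in STAM + Atglistatin, 0.116 CPM in STAM and 0.121 CPM in chow livers, by a limit of 3 counts that covers counting error only. These receptors were therefore not detected at this depth.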

How the data were processed

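Polyadenylated liver RNA (left lobe) was sequenced with the QuantSeq 3' kit, per the labels' protocols. STAR and the mouse build GRCm38 are named in the submitters' processing notes, and the sources used here do not give the STAR version, the annotation, the counting tool or how strand and multiply mapped reads were handled. The authors deposited raw counts per gene. The authors' table also holds their own log2 fold changes and adjusted p-values, deposited with no tool named, and these were used only where stated. Groups were taken from the sample titles, because the treatment label of the STAM and chow samples contradicts the titles and the study's description. Nothing in the labels says how mice were caged or processed in batches. The p-values therefore set differences between groups only against the spread between the 3 mice within each group. That spread was estimated over all 9 libraries together, with information shared between genes.

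The 7 entries without a gene identifier (0.26 to 0.529% of counts) were left out. The test was edgeR 4.0.16 under R 4.3.3, with TMM scaling and the filterByExpr filter by group, which kept 12660 of 20630 genes with counts. All 9 libraries entered 1 quasi-likelihood fit (common biological coefficient of variation 0.236), p-values were adjusted by Benjamini-Hochberg over every tested gene, and the threshold was 0.05. Errors of CPM are SD, and errors of log2 fold changes are SE, each with n = 3 mice a group. Intervals use 95%. Positions and overlaps come from GENCODE M21, which held 55141 of the identifiers, and promoter sequences from RefSeq GRCm38.p6. Totals of 7.38 to 9.89 (in units of 1e6 counts) limit precision for members of a few CPM.

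The members, the gene lists and the tests were chosen with earlier results of these data known, so no test was made over a list. Full values are given for members that passed in any comparison, the 5 most abundant and 10 fixed for their place in liver, for up to 3 genes of a target list a comparison by smallest p, and for other members whose groups did not overlap, which were chosen after their values were seen. Alternatives were DESeq2 1.42.0 and its size factors, library totals, no low-count filter, limma-voom (limma 3.58.1) with sample weights, a fit to only 2 groups, a minimum absolute log2 fold change of 1, and each library left out. The test was checked on simulated counts.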

Additional observations from a re-analysis of the deposited data

How the results depend on the processing

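Counts of receptors that passed moved with the setting. A minimum absolute log2 fold change of 1 left 1 receptor (Nr4a2) and 230 genes in STAM against chow. It left 0 receptors and 123 genes in STAM + Atglistatin against STAM. In STAM + Atglistatin against chow it left 2 receptors (Nr1d1 and Nr1i3) and 256 genes. With no low-count filter 1 receptor (Nr1d1) and 392 genes passed in STAM + Atglistatin against STAM, where 0 receptors and 226 genes passed before. Other settings were DESeq2, its size factors, library totals, limma-voom and the fit to 2 groups. These left 2 to 4 receptors and 462 to 729 genes in STAM against chow. In STAM + Atglistatin against chow they left 3 to 4 receptors and 374 to 648 genes. Leaving out 1 library at a time left 1 to 2 receptors and 291 to 724 genes in STAM against chow, 0 receptors and 131 to 191 genes in STAM + Atglistatin against STAM, and 1 to 3 receptors and 309 to 757 genes in STAM + Atglistatin against chow. A count of 1 receptor came without STAM replicate 1 or chow replicate 9 in STAM against chow, and without STAM + Atglistatin replicate 4 or chow replicate 8 or 9 in STAM + Atglistatin against chow. The cause was not tested, beyond the smaller number of libraries. Among the members given with full values by rule (those that passed, the 5 most abundant and the 10 fixed), log2 fold changes close to 0 turned sign when 1 library was left out, as did those of some other members. In STAM against chow these were Nr1h3 (-0.10 to 0.10) and Nr3c1 (-0.07 to 0.13). In STAM + Atglistatin against STAM they were Esrra (-0.08 to 0.17, and -0.01 with limma-voom), Hnf4a (-0.00 to 0.11), Nr0b2 (-0.38 to 0.22), Nr1h3 (-0.06 to 0.14), Nr3c1 (-0.26 to 0.03), Pparg (-0.34 to 0.27), Rora (-0.04 to 0.11) and Rxra (-0.02 to 0.10). In STAM + Atglistatin against chow they were Nr0b2 (-0.57 to 0.02), Nr1h4 (-0.03 to 0.29), Nr3c1 (-0.26 to 0.03) and Ppara (-0.14 to 0.26). No paired analysis was possible because the replicate numbers of the labels run from 1 to 9 and are shared by no 2 groups. Depth limits the members under 10 CPM, whose intervals span more than 1 log2 unit.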
